A study of Mus musculus with 27 samples.

Results

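The genes described here are the nuclear Nduf genes, which encode most of the subunits of mitochondrial complex I and several of the proteins that assemble it. They were taken as every gene whose symbol is Ndufa, Ndufb, Ndufc, Ndufs, Ndufv, Ndufab or Ndufaf followed by a number, which gave 45 of the 36333 genes measured. Of these, 36 are subunits, 7 are assembly factors (Ndufaf1 to Ndufaf7), and the other 2 are Ndufa4 and Ndufa4l2, kept apart because Ndufa4 is now assigned to complex IV. A further pair of genes of the same kind stands in the data under other symbols, and their liver values are given at the end. RNA-seq was performed on liver, omental adipose tissue and skeletal muscle of MlxKO mice at 5 months (n = 4 per tissue) and 20 months (n = 5 per tissue), 27 samples in all. The sources differ on the older age. The labels give 20 months, used here, while the codes of those samples begin with X18 where those of the 5-month samples begin with X5. The study's list of Mlx excision puts mice with the same final digits below 20 months. Every sample carried the same genotype, the Cre allele Gt(ROSA)26Sortm1(cre/ERT2)Tyj on a B6.129 background together with Mlx Flox/Flox. In these mice the ubiquitous ROSA26 promoter drives a tamoxifen-dependent Cre that excises the floxed part of Mlx. All mice were male by the study's methods and had received daily tamoxifen injections at weaning, so both ages share the allele and the drug. No mice with intact Mlx were analysed here, and no result below measures the effect of losing Mlx. The 5-month samples of the 3 tissues came from the same 4 mice (liver samples X5L4299, X5L5001, X5L5238 and X5L5239, with F for adipose tissue and S for muscle in place of L; per-sample values below keep this order, then ascending replicate number at 20 months), whereas the 20-month samples carried a different number in each tissue.

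Complex I is the entry point of the respiratory chain. It takes electrons from NADH through a peripheral arm, made of the N module, which holds the NADH site, and the Q module, which passes electrons to ubiquinone. A membrane arm pumps protons and is described in proximal and distal parts. The core subunits, conserved from bacteria, carry the flavin and the iron-sulfur clusters in the peripheral arm and form the proton channels in the membrane arm; the membrane-arm core is encoded by mitochondrial DNA. The accessory subunits surround and stabilize this core, and the assembly factors join the modules and then leave. Mlx is a basic helix-loop-helix protein that pairs with MondoA or ChREBP and binds DNA at E-box elements.

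Because Mlx partners bind E-boxes, the promoters of the members were searched, from 250 bases before to 50 bases after the first RefSeq start listed for each gene (GRCm38.p6). That start can lie inside the gene, as for Ndufs7, whose gene begins at chr10:80249105. Promoters were found for 39 of the 45 genes, and each letter run was sought on both strands. The E-box CACGTG occurred in 2 of the 39 (5.13%), Ndufa7 and Ndufv1, against 7.24% of all 27025 promoters. The run GCGCATGCG, known for the nuclear respiratory factor NRF1, occurred in 4 (10.3% against 1.81%), namely Ndufa8, Ndufa11, Ndufaf4 and Ndufaf5. The ETS-type run ACCGGAAG occurred in 4 (10.3% against 2.34%), namely Ndufs3, Ndufs8, Ndufb6 and Ndufaf1. The YY1-type run AAGATGGCG occurred in 5 (12.8% against 1.49%), namely Ndufs4, Ndufs6, Ndufs7, Ndufa9 and Ndufc1. No member held more than 1 kind of run, and these are letter matches, not measured binding. The promoters of 5 subunits are shown with the matched run in capitals: both with an E-box, and those of Ndufa11, Ndufs7 and Ndufs8, which passed the age test below. Ndufa7 lies at chr17:33824322-33824621 (plus strand), and its E-box begins 72 bases before the start. Ndufv1 lies at chr19:4012706-4013005 (minus strand), and its E-box begins 169 bases before the start. Ndufa11 lies at chr17:56717512-56717811 (plus strand) with the NRF1 run, in capitals as its matches on both strands, from 60 bases before the start. Ndufs7 lies at chr10:80249199-80249498 (plus strand) with the YY1 run 24 bases after it, and Ndufs8 at chr19:3912725-3913024 (minus strand) with the ETS run, on the other strand, 15 bases after it.
Ndufa7: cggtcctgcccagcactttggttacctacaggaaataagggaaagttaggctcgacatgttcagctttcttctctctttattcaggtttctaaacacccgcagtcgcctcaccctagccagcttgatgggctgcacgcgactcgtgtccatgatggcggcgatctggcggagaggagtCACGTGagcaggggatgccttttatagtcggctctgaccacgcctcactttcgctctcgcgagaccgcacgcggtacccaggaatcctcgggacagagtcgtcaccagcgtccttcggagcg
Ndufv1: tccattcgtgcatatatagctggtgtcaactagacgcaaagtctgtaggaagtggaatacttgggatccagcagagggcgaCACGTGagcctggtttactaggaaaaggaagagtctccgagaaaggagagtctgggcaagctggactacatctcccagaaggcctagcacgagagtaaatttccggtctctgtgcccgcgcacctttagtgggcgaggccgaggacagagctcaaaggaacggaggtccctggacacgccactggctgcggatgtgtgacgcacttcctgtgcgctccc
Ndufa11: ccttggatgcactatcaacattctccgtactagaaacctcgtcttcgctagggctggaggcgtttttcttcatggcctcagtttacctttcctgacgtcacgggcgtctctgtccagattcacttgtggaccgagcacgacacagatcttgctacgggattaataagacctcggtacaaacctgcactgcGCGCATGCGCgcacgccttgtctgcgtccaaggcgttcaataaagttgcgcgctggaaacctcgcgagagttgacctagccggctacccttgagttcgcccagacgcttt
Ndufs7: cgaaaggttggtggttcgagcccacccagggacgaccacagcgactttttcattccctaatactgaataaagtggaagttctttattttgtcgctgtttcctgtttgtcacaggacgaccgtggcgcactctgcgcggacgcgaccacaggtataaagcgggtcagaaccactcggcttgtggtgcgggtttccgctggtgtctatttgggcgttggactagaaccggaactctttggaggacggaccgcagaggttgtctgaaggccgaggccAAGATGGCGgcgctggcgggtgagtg
Ndufs8: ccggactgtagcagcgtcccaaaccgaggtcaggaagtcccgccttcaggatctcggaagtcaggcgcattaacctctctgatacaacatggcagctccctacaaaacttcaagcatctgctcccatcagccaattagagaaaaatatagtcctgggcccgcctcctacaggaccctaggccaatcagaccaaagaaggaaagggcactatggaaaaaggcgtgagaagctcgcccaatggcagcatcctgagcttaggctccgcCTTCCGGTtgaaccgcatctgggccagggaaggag

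Each sample held 14384695 to 25673919 reads on genes, and the 45 Nduf genes took between 0.176% of them in an adipose sample and 0.827% in a muscle sample. Values are reads scaled to library size and divided by a further factor for each sample, called the value here, and differences are on the log2(value + 1) scale unless stated, which understates changes of low genes. Mlx itself, for which no intact control was measured, ranged from 18.8 to 32.4 in the livers, 8.19 to 13.9 in the fat samples and 7.04 to 11.6 in the muscles. These values are per gene and do not measure excision. In the study's qRT-PCR, Mlx expression relative to wild-type tissue was highest in muscle, lower in adipose tissue and lowest in liver. The knockout was thus incomplete to a degree that differed by tissue, and its part in the tissue differences was not tested. The tissues carried their own markers: summed hepatocyte markers were 45490 or more in every liver sample and at most 332 elsewhere, muscle fibre markers were 136490 or more in muscle and at most 881 elsewhere, and white adipocyte markers were 6057 or more in adipose tissue and at most 440 elsewhere. Some samples stood apart in their Nduf genes and are named with the results that rest on them: adipose samples X5F5239 and X5F5001, muscle sample X5S5238, 5-month liver X5L5001 and replicate 74 of the 20-month livers. In bulk tissue, fewer cells of a type and less RNA per cell cannot be told apart.

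The subunits were highest in muscle, intermediate in liver and lowest in adipose tissue. Averaged over the 36 subunits, the level in log2 units at 5 months spanned 6.07 to 6.59 for liver, 4.33 to 5.50 for adipose tissue and 6.78 to 7.65 for muscle. At 20 months it spanned 6.14 to 6.60 for liver, 5.11 to 5.45 for adipose tissue and 7.32 to 7.55 for muscle. No sample of one tissue reached the range of another, at either age. In the fit over all 27 samples (limma, adjusted p under 0.05 over 15572 genes), all 36 subunits were lower in adipose tissue than in muscle at 5 months (median log2 difference -2.27) and at 20 months (median -2.19), where 30.9% and 33.9% of all genes were lower. All 36 were higher in liver than in adipose tissue at 5 months (median 1.59) and 35 at 20 months (median 1.24), against 36.5% and 35.7% of all genes. With samples rescaled without the 20 most abundant genes, these counts were 27 and 21, and the median of all genes moved by -0.80 and -0.61. Of all genes, 2589 and 2946 were then called higher in liver, against 5687 and 5564 in the main fit. Liver was lower than muscle for 22 of 36 at 5 months (median -0.79) and 30 of 36 at 20 months (median -0.95), against 36.8% and 38.1% of all genes, and no subunit was called higher in liver. The sources differ on RNA extraction: the labels give a lipid tissue kit for adipose tissue and muscle and another for liver, while the study's methods name 1 kit for every sample. If the kits differed, their part cannot be told apart from that of the tissue.

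**Figure D1:**
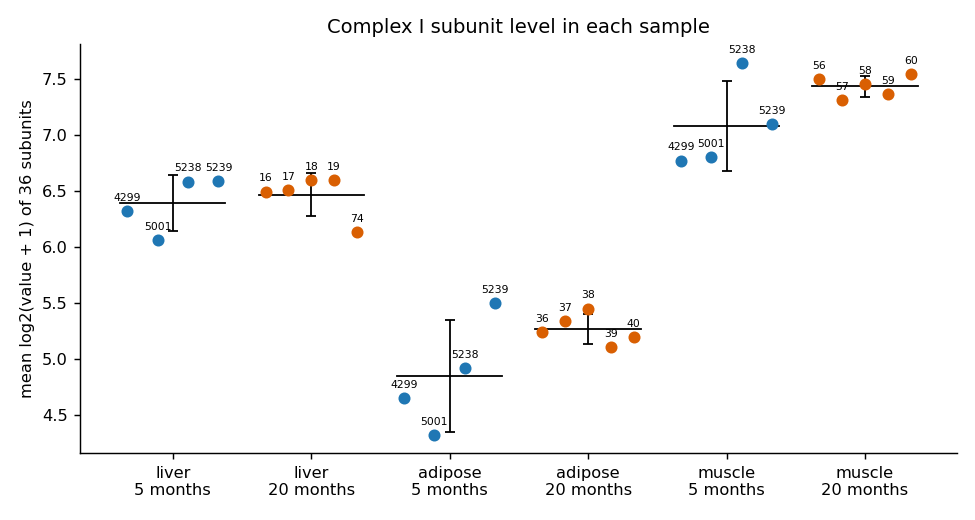
Mean log2(value + 1) over the 36 complex I subunits in each of the 27 samples, by tissue and age (blue, 5 months, n = 4; orange, 20 months, n = 5), with the group mean (line) and SD (bar) and the replicate number above each point. The 5-month groups of adipose tissue (4.33 to 5.50) and muscle (6.78 to 7.65) spread far more widely than the 20-month groups (5.11 to 5.45 and 7.32 to 7.55).

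The order of the tissues held for all 7 core subunits, which were compared with one another per kilobase of transcript. Ndufs7, which carries the last iron-sulfur cluster of the chain, had 140 per kilobase in 5-month liver, 41.6 in adipose tissue and 403 in muscle. Ndufv1, which binds the flavin and NADH, had 122, 40.8 and 258. Ndufs3, a Q-module subunit, had 114, 33.9 and 203. Ndufv2 had 88.5, 30.3 and 203, Ndufs8 had 67.4, 21.8 and 137, and Ndufs1, the largest iron-sulfur subunit of the N module, had 66.2, 19.8 and 196. Ndufs1 was thus the lowest of the 7 in liver and adipose tissue at 5 months, while in muscle Ndufs8 was lower. Over all 36 subunits the highest level per kilobase was 9.87 times the lowest in 5-month liver (Ndufb9 at 299.8 against Ndufab1 at 30.4). These levels depend on the transcript lengths chosen from the annotation.

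For each pair of tissues, the members at either end of the range of differences at 5 months are given. These were the subunits Ndufs1 and Ndufs6, the assembly factors Ndufaf2 and Ndufaf5, and Ndufa4l2. An end of the range can be a small difference, and members between the ends can differ more. Ndufs1 read 489, 533, 546 and 516 in muscle against 53.2, 48.2, 49.5 and 59.5 in adipose tissue (log2 difference -3.29 ± 0.10 SE for adipose minus muscle), the largest difference between those tissues of any member. Ndufs6, a zinc-binding N-module subunit, read 51.0, 34.8, 85.0 and 90.6 in liver against 9.73, 6.95, 12.5 and 28.5 in adipose tissue (2.19 ± 0.30 for liver minus adipose), with no overlap. Ndufa4l2, a relative of Ndufa4 known as a hypoxia-induced gene, went the other way, at 0.946 to 2.23 in liver and 2.70 to 7.70 in adipose tissue (-1.33 ± 0.23). Ndufaf5, which hydroxylates an arginine of Ndufs7, was at 1.82 to 4.24 in liver and 18.4 to 30.8 in muscle (-2.65 ± 0.19 for liver minus muscle). Ndufaf2, which acts late in assembly, was higher in liver, at 7.20 to 10.8, than in muscle, at 3.48 to 6.73 (0.99 ± 0.22), and Ndufaf3 was the other member called in that direction (0.47 ± 0.19). Ndufaf2 was also the member with the smallest gap between adipose tissue and muscle at 5 months (-0.08 ± 0.22, adjusted p = 0.752), with a difference that turned to 0.50 when samples were rescaled without the 20 most abundant genes.

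With age, liver had few calls among the subunits, and they went in both directions. Between 5 and 20 months (limma, 12654 genes tested in liver), 3 of 36 subunits passed the threshold of adjusted p under 0.05, against 19.8% of all genes: Ndufa7 and Ndufs8 rose and Ndufs1 fell. The median log2 change over the 36 was 0.11, with 24 above 0 and 12 below, beside a median of 0.00 over all genes. Values of the 2 ages did not overlap for Ndufa7 and Ndufs8, higher at 20 months, or for Ndufs1, lower at 20 months; 19.1% of all genes had no overlap. 

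Ndufs1 in liver had the smallest adjusted p of any member in any tissue. In liver it read 171, 174, 179 and 182 at 5 months and 143, 126.1, 115, 130 and 99.1 at 20 months. All 4 young livers lay within a narrow range above all 5 old ones. Its log2 change was -0.53 ± 0.11 (SE; 0.69-fold, adjusted p = 0.0136), the exact permutation p was 0.00794, the smallest that 4 against 5 samples allow, and the call was kept without any one of the 9 samples and in all 13 other settings. In the same livers the summed hepatocyte markers also did not overlap, at 105506 to 165054 at 5 months and 45490 to 99181 at 20 months, and transcripts over 4000 bases had a median log2 change of -0.18. Sums of B cell markers (2.18 to 8.24 and then 9.97 to 19.7), erythroid markers (664 to 842 and then 953 to 1257) and mesothelial markers (4.72 to 9.10 and then 9.12 to 22.2) did not overlap either, and macrophage markers were 246 to 371 and then 280 to 931. The part of these in the fall of Ndufs1, whose transcript has 2661 bases, was not tested. After correction for how values varied with transcript length and GC, the change was -0.51 (adjusted p = 0.0239). Relative to the mean of the other 35 subunits of the same sample, a measure chosen after its values were seen, Ndufs1 stood 0.93 to 1.42 log2 units higher at 5 months and 0.27 to 0.69 at 20 months (change -0.62). The ages also did not overlap on this measure for Ndufa5 (-0.44), Ndufv1 (-0.41), Ndufa12 (-0.24), Ndufb7 (0.24), Ndufa7 (0.42) and Ndufa2 (0.65). The separation was thus not particular to Ndufs1. The share of Ndufs1 in all subunit values was 4.64% to 6.004% and then 2.99% to 3.95%. The gene lies at chr1:63143592-63176822 (GRCm38) and overlaps the noncoding gene Ino80dos; how strand was handled in counting is not given in the sources used here.

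Ndufa7, an accessory N-module subunit with an E-box in its promoter, read 68.8, 60.9, 88.8 and 81.7 in young liver and 96.4, 110, 121, 98.6 and 98.0 in old liver. Every old liver lay above every young one, with a log2 change of 0.49 ± 0.13 (1.4-fold, adjusted p = 0.0250). The call was lost without any one of X5L4299 and X5L5001 or replicates 17 and 18 (adjusted p 0.0575 to 0.0715) and when the length and GC trend was removed (change 0.20, adjusted p = 0.134). Ndufs8, a Q-module core subunit with 2 iron-sulfur clusters, read 59.1, 53.5, 61.7 and 63.5 and then 70.7, 81.3, 94.9, 87.3 and 64.7 (0.41 ± 0.12, 1.33-fold, adjusted p = 0.0400). Its ages did not overlap either, though replicate 74 came close to the young livers. That call was lost without any one of 7 of the 9 samples, those other than replicates 16 and 74 (adjusted p 0.0619 to 0.107), and the change was 0.06 with the length and GC trend removed. Ndufv1, the other gene with an E-box, read 198, 172, 218 and 226 and then 185, 169, 184, 170 and 112, and the ages overlapped (-0.32, adjusted p = 0.155). Among other core subunits, Ndufs3 (0.11, adjusted p = 0.604), Ndufs7 (0.12, adjusted p = 0.613) and Ndufv2 (-0.06, adjusted p = 0.719) did not pass the threshold.

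**Figure D2:**
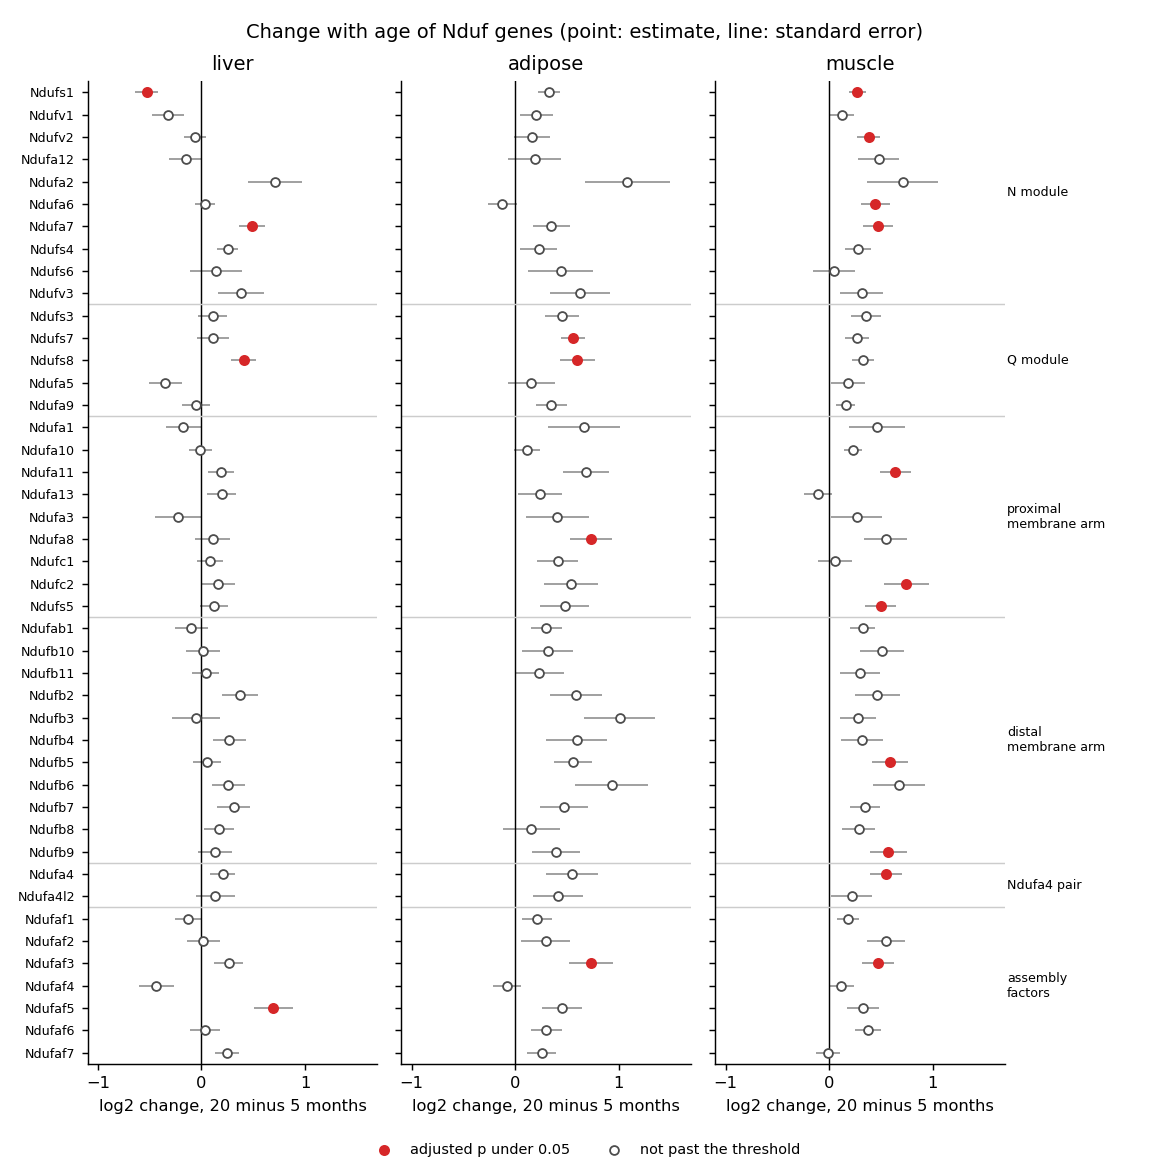
Log2 change from 5 to 20 months of the Nduf genes named on the axis (point) with its standard error (line), in liver, adipose tissue and muscle, ordered by module with core subunits first; filled red points passed adjusted p under 0.05. Liver points lie on both sides of 0 (24 subunits above), while 34 subunits lie above 0 in adipose tissue and in muscle.

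In adipose tissue 34 of 36 subunits had a higher mean at 20 months, and 3 passed the test. The median log2 change was 0.41 beside 0.01 over all genes. Ndufs7, Ndufa8 and Ndufs8 rose (3 of 36, against 19.1% of 14005 genes in either direction and 9.75% upward). The ages did not overlap for any of these 3, and 17.4% of all genes had no overlap. Ndufs7 read 29.1, 29.3, 30.6 and 37.3 at 5 months and 44.5, 43.0, 56.7, 44.3 and 46.4 at 20 months (0.56 ± 0.12, 1.47-fold, adjusted p = 0.0196). Ndufa8, an accessory subunit of the proximal membrane arm, read 22.3, 15.4, 24.8 and 35.1 and then 35.3, 42.6, 47.3, 36.7 and 37.2 (0.73 ± 0.20, 1.66-fold, adjusted p = 0.0375). Ndufs8 read 16.05, 14.3, 21.3 and 25.4 and then 29.7, 27.4, 34.97, 26.2 and 27.4 (0.60 ± 0.17, 1.52-fold, adjusted p = 0.0385). In all 3 genes X5F5239 was the young sample nearest to the old ones. Among the core subunits, Ndufs1 (0.33, adjusted p = 0.0548), Ndufs3 (0.45, adjusted p = 0.0750), Ndufv1 (0.20, adjusted p = 0.344) and Ndufv2 (0.16, adjusted p = 0.488) did not pass either. The call of Ndufs7 was lost without X5F4299 or X5F5001 (adjusted p 0.0545 to 0.0642) and when the length and GC trend was removed (change 0.29, adjusted p = 0.0705). Those of Ndufa8 and Ndufs8 were lost without either of these samples or any one of replicates 37, 38, 39 and 40 (adjusted p 0.0629 to 0.107).

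Marker genes of several cell types in the adipose samples also differed in sum between the ages. Summed macrophage markers (8 genes) were 819 to 1835 at 5 months and 1237 to 5791 at 20 months, endothelial markers (5 genes) 568 to 1275 and 351 to 672, white adipocyte markers (6 genes) 6057 to 13587 and 8686 to 12986, and muscle fibre markers (7 genes) 328 to 881 and 103 to 587. B cell markers were 5.39 to 21.7 and 18.1 to 189, T cell markers 6.98 to 13.97 and 5.76 to 53.1, and Ighm and Trac were listed at 0 in all of them. Sample X5F5239 had the highest white adipocyte sum of the young samples (13587) and the lowest endothelial sum (568). The part of these lists in the subunit changes was not tested.

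In muscle 9 of 36 subunits rose and none fell, against 19.3% of 12720 genes called in either direction and 9.13% upward. The 9 were Ndufa6, Ndufa7, Ndufa11, Ndufb5, Ndufb9, Ndufc2, Ndufs1, Ndufs5 and Ndufv2. The median log2 change was 0.33, beside 0.02 over all genes, with 34 of 36 above 0. The ages did not overlap for 1 subunit, Ndufs1, against 17.3% of all genes. Ndufa11, a membrane-arm subunit at the junction with complex III in the supercomplex, read 81.8, 84.3, 146 and 103 and then 158, 143, 169, 160 and 160. Of the young samples, only X5S5238 reached into the old range, and the log2 change was 0.64 ± 0.15 (1.56-fold, adjusted p = 0.0158), a call kept without any one sample and in all 13 other settings. Ndufs1 read 489, 533, 546 and 516 and then 647, 578, 665, 607 and 654, every old muscle above every young one (0.27 ± 0.08, 1.21-fold, adjusted p = 0.0390). Relative to the other 35 subunits of the same sample, Ndufs1 in muscle stood at 1.49 to 2.32 log2 units at 5 months and 1.86 to 1.97 at 20 months (change -0.08, exact permutation p = 0.675). Ndufc2, of the proximal membrane arm, read 37.96, 34.3, 81.0 and 63.4 and then 94.1, 72.2, 85.6, 80.9 and 100 (0.75 ± 0.22, adjusted p = 0.0366). Ndufb5, of the distal arm, read 167, 150, 290 and 224 and then 347, 257, 297, 291 and 325 (0.58 ± 0.17, adjusted p = 0.0362). Ndufv2, which carries an iron-sulfur cluster beside the flavin subunit, read 235, 248, 332 and 251 and then 381, 307, 344, 329 and 366 (0.38 ± 0.11, adjusted p = 0.0366). The core subunits Ndufs3 (0.36, adjusted p = 0.0955), Ndufs7 (0.27, adjusted p = 0.118), Ndufs8 (0.33, adjusted p = 0.0539) and Ndufv1 (0.12, adjusted p = 0.494) did not pass. Apart from Ndufa11, each of the other 8 calls was lost without any one of at least 6 of the 9 samples, X5S4299 and X5S5001 among them (adjusted p 0.0505 to 0.114 where lost). In the same muscles summed macrophage markers were 151 to 239 at 5 months and 85.1 to 166 at 20 months, endothelial markers 431 to 486 and 335 to 439, and erythroid markers 420 to 699.7 and 291 to 587. Their part in the subunit changes was not tested.

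**Figure D3:**
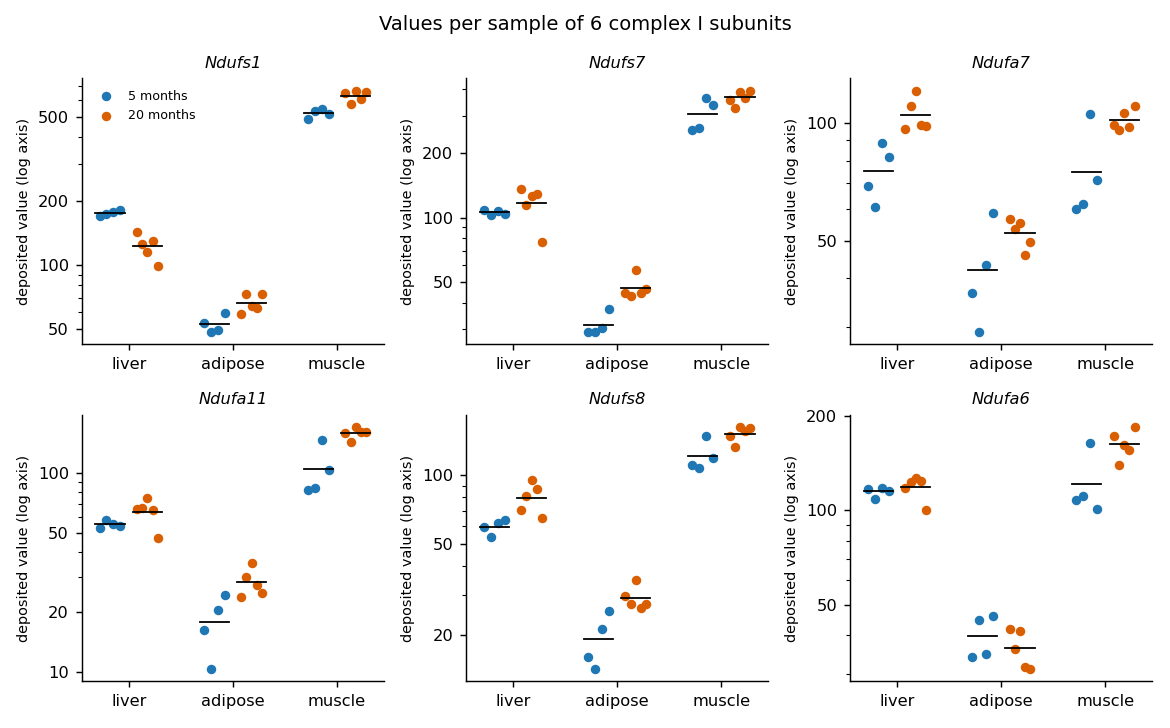
Value of 6 subunits in each sample on a log axis, by tissue and age (blue, 5 months; orange, 20 months; line, group mean). Ndufs1 separates the ages in liver, where old samples are lower (99.1 to 143 against 171 to 182), and in muscle, where they are higher (578 to 665 against 489 to 546).

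How many subunits passed depended on single samples. In muscle, all 36 subunits had their highest young value in X5S5238, for which 31.3% of all genes did, and without that sample 31 of 36 subunits rose (median 0.52; 30.1% of all genes were then called). Without X5S4299 or X5S5001 or replicate 56, 58, 59 or 60 the count was 1, without X5S5239 it was 3, and without replicate 57 it was 4. In adipose tissue, 34 of 36 subunits were highest among the young samples in X5F5239, against 31.4% of all genes, and 32 were lowest in X5F5001, against 37.6%. Without X5F5239, 23 of 36 rose (median 0.62; 26.4% of all genes called); without X5F4299 or X5F5001 no subunit passed in limma, with 9 and 7 at an unadjusted p under 0.05. Without replicate 37, 38, 39 or 40 the count was 1, and without replicate 36 it was 5. In liver, 35 of 36 were lowest among the old samples in replicate 74, against 35.2% of all genes, and without it 7 passed (median 0.19). The share of all genes called without replicate 74 is not given here. With all 9 livers it was 19.8%, so the 7 cannot be read as a result about the subunits. Among the young livers, 33 of 36 were lowest in X5L5001, against 27.6% of all genes, and the median log2 change without it was 0.0044. Without X5L4299 or X5L5001 or replicate 17 or 18, only Ndufs1 passed, and without X5L5238 or X5L5239 or replicate 19 the count was 2. Muscle sample X5S5238 also had the highest summed muscle fibre markers (172584) and the highest hepatocyte markers of any muscle (332), and replicate 74 had the lowest hepatocyte sum of the old livers (45490, others 86120 to 99181).

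**Figure D4:**
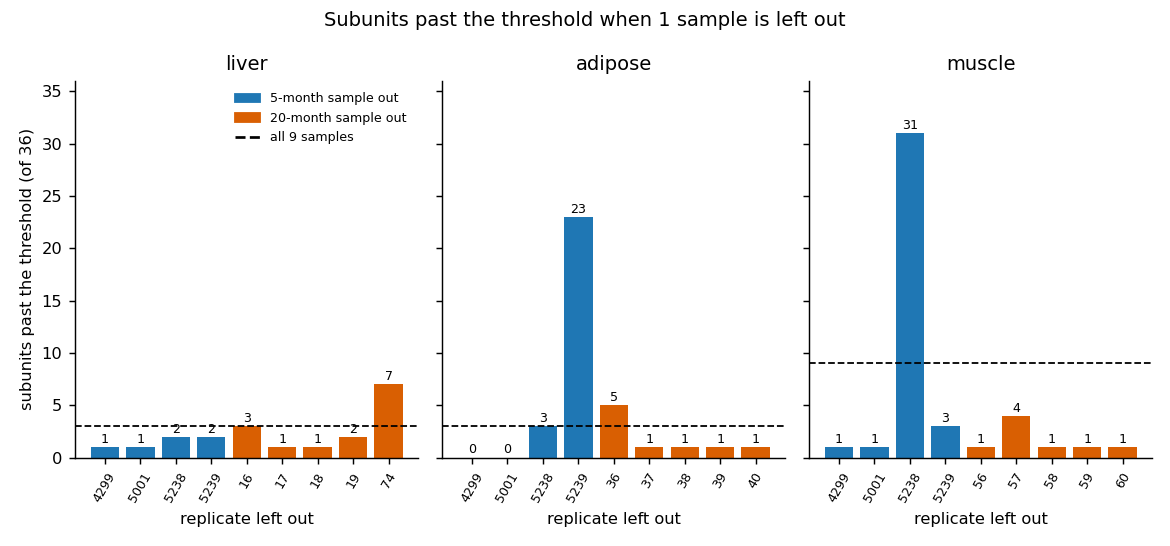
Number of the 36 subunits past adjusted p under 0.05 for 20 against 5 months when the named sample is left out (blue bars, a 5-month sample; orange bars, a 20-month replicate), with the count over all 9 samples as a dashed line. The count reaches 31 in muscle without X5S5238 and 23 in adipose tissue without X5F5239.

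Values of short transcripts in general also differed between samples and ages. The median transcript length was 800.5 bases for the 36 subunits and 1910 over all genes with a length. Among tested genes outside the Nduf family with transcripts under 1000 bases, the median log2 change from 5 to 20 months was 0.24 in liver (882 genes), 0.33 in adipose tissue (907 genes) and 0.23 in muscle (823 genes). Transcripts over 4000 bases had medians of -0.18, -0.12 and -0.06. The 23 subunits under 1000 bases had medians of 0.12, 0.48 and 0.46, and the 13 longer ones -0.01, 0.24 and 0.28. The samples that stood apart in their subunits had these values for short transcripts: in adipose tissue X5F5239 deviated from the tissue mean by 0.22 for short transcripts and 0.38 for subunits, and X5F5001 by -0.50 and -0.79. In muscle X5S5238 deviated by 0.23 and 0.32. In liver X5L5001 deviated by -0.32 and -0.39, and replicate 74 by 0.00 and -0.29. With values corrected in each sample for their smooth relation to length and GC, 12 subunits passed in muscle (median 0.26) and 5 in adipose tissue (median 0.20). The median in liver turned to -0.17 with 4 passing, none upward. The median over all genes was then 0.05 in muscle, 0.00 in adipose tissue and -0.06 in liver. Of all genes, 1598 rose and 1130 fell in muscle, 1535 and 1337 in adipose tissue, and 783 and 1071 in liver. The part of transcript length in these changes was not tested beyond that fit.

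**Figure D5:**
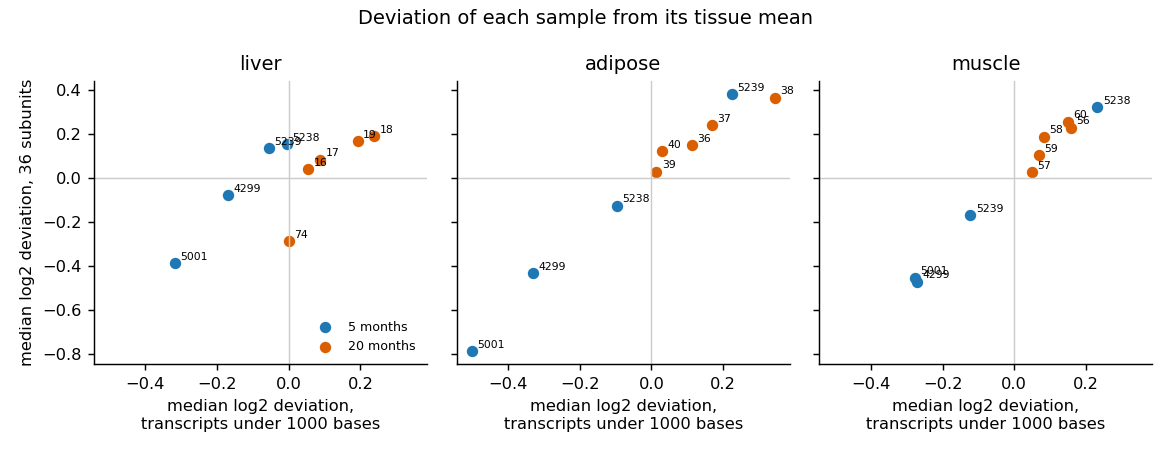
Median log2 deviation from the tissue mean of the 36 subunits (y axis) against that of other genes with transcripts under 1000 bases (x axis), 1 point per sample with its replicate number (blue, 5 months; orange, 20 months). X5F5001 lies at the lower left of the adipose panel at -0.50 and -0.79, and replicate 74 of the livers at 0.00 and -0.29.

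The change with age was then compared between tissues by an interaction term (limma, 15572 genes). Ndufs1 was the 1 subunit called for liver against adipose tissue, where 15.6% of all genes were called, and for liver against muscle, where 17.5% were. Its change in liver was lower than in adipose tissue by -0.86 ± 0.13 log2 units (adjusted p = 0.000202) and lower than in muscle by -0.80 ± 0.13 (adjusted p = 0.000405). Both calls were kept in all 41 other fits, including those with the mouse as a block. For adipose tissue against muscle, Ndufa6, an N-module subunit of the LYR protein family, was the 1 subunit called (14.7% of all genes). It read 33.9 to 46.0 and 31.2 to 41.9 in young and old adipose tissue and 101 to 164 and 139 to 185 in muscle (-0.57 ± 0.18, adjusted p = 0.0374), and the call was lost in 13 of 41 other fits, 11 of which left out 1 sample (adjusted p up to 0.0867). Adjusted p above the threshold included those of Ndufb3 (0.0722) and Ndufv1 (0.0968) for liver against adipose tissue, Ndufaf4 (0.0642) and Ndufv2 (0.112) for liver against muscle, with Ndufb3 at 0.223 for adipose tissue against muscle. The comparisons share samples, and the young samples share mice.

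The log2 change with age was also summarised as the median of each module. Calls per module stand beside 19.3% of all genes called in muscle, 19.1% in adipose tissue and 19.8% in liver, in either direction. Differences between modules were not tested. In muscle the medians were 0.35 for the N module (10 genes, 4 called), 0.23 for the Q module (6 genes, 0 called), 0.46 for the proximal membrane arm (9 genes, 3 called) and 0.35 for the distal membrane arm (11 genes, 2 called). In adipose tissue they were 0.28 (0 called), 0.40 (2 called), 0.48 (1 called) and 0.47 (0 called). In liver they were 0.09 (2 called, in opposite directions), 0.03 (1 called), 0.11 (0 called) and 0.13 (0 called). For the 7 core subunits the medians were -0.06 (liver), 0.33 (adipose tissue) and 0.27 (muscle), and the 29 accessory subunits 0.12, 0.41 and 0.35.

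Of the 7 assembly factors, 1 passed in each tissue, where 19.8% (liver), 19.1% (adipose tissue) and 19.3% (muscle) of all genes did. In liver Ndufaf5 read 3.18, 1.82, 2.28 and 4.24 and then 4.53, 5.71, 4.56, 5.28 and 5.56, with no overlap (0.70 ± 0.19, adjusted p = 0.0284). In adipose tissue Ndufaf3, which joins the Q-module intermediates, read 4.63, 3.51, 5.54 and 9.08 and then 8.99, 8.33, 11.6, 9.12 and 10.4 (0.73 ± 0.21, adjusted p = 0.0435), X5F5239 lying among the old samples. In muscle Ndufaf3 also rose, from 7.76, 7.09, 12.8 and 10.5 to 12.5, 13.7, 13.5, 13.7 and 13.1 (0.47 ± 0.15, adjusted p = 0.0480), with X5S5238 within the old range. The ages in muscle did not overlap for Ndufaf6, at 14.03 to 22.5 and then 23.02 to 25.7, which narrowly missed the threshold (0.38, adjusted p = 0.0523). Each of the 3 calls was lost without any one of 6 to 8 of the 9 samples, the young samples of the first 2 mice among them (adjusted p 0.0501 to 0.120 where lost). Ndufaf4 had the lowest estimate in liver, at 34.8 to 42.1 and then 20.3 to 40.6 (-0.44, adjusted p = 0.0853). Ndufaf1, which acts with other factors on the early membrane arm, Ndufaf2 and Ndufaf7, a methyltransferase, did not pass in any tissue, with log2 changes between -0.13 and 0.55. The medians of the 7 were 0.04 in liver, 0.29 in adipose tissue and 0.33 in muscle.

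Ndufa4 rose in muscle, from 241, 232, 415 and 248 to 446, 369, 406, 370 and 434 (0.55 ± 0.16, 1.46-fold, adjusted p = 0.0338). Young sample X5S5238 lay within the old range, and the call was lost without any one of 7 samples, those other than X5S5238 and replicate 59 (adjusted p 0.0523 to 0.0829). In liver (0.21, adjusted p = 0.232) and adipose tissue (0.55, adjusted p = 0.136) it did not pass. Ndufa4l2 passed in no tissue (0.14, 0.41 and 0.22).

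Other genes of the pathway were taken from lists by function. Of 10 further assembly factors, 2 rose in liver (Acad9, 1.41-fold, and Nubpl, 1.76-fold), 2 in adipose tissue (Acad9, 1.44-fold, and Tmem126b, 1.51-fold) and 3 in muscle (Tmem126a, 1.41-fold, Tmem126b, 1.67-fold, and Lyrm2, 1.49-fold), and none fell. Over all genes 19.8%, 19.1% and 19.3% were called in these tissues, in either direction. Acad9 and Tmem126b belong to the complex that builds the early membrane arm, and Nubpl brings iron-sulfur clusters to complex I. The nuclear subunits of complexes II to V had the following median changes, for II, III, IV and V in turn: 0.05, -0.10, 0.06 and -0.03 in liver, 0.48, 0.35, 0.41 and 0.32 in adipose tissue, and 0.36, 0.30, 0.27 and 0.28 in muscle. The 7 complex I subunits of mitochondrial DNA were listed at 0 in all 27 samples, so the membrane-arm core could not be described. Among 16 regulators of mitochondrial genes and Mlx partners, 1 rose and 3 fell in liver, 1 rose and 4 fell in adipose tissue, and 2 rose and 3 fell in muscle, beside the same shares of all genes. Of these, Tfam, which maintains mitochondrial DNA, rose in muscle (1.46-fold, adjusted p = 0.0124) and Esrra, a nuclear receptor for respiratory genes, rose in adipose tissue (1.77-fold, adjusted p = 0.0314). The called regulators that fell are not named here, and in each tissue more of them fell than rose. Of the 2 genes under other symbols, matched by gene ID, LOC102631912 is Ndufb1 of the distal arm. It read 31.8, 34.0, 46.1 and 48.8 in young liver and 26.6, 27.4, 26.0, 25.4 and 28.8 in old liver, with no overlap (-0.54 ± 0.14, adjusted p = 0.0222). The other, 1810043H04Rik, is the assembly factor Ndufaf8 and read 10.5 to 17.4 in young and 16.9 to 25.7 in old liver. Their values in adipose tissue and muscle, and whether the call of Ndufb1 held in other fits, are not given here.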

How the data were processed

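RNA-seq of 27 samples from MlxKO mice was analysed: liver, omental adipose tissue and skeletal muscle at 5 months (n = 4) and 20 months (n = 5). Per the study's methods, poly-A RNA was sequenced with a directional kit and reads were mapped and counted in CLC Genomics Workbench; the build names given are mm10 and GRCm38.p6. The authors deposited a signal per gene headed CPM, whose sums over genes differed between samples (lowest 559419), so it is reads scaled to depth and divided by a factor per sample; a recomputed TMM factor lay within 2.01% of it in all 27. In 100% of values whole reads could be recovered (tolerance 0.01). Nothing was done to the values before log2(value + 1).

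Genes were kept where 4 or more samples had a value of 1 or more, and tested with limma 3.58.1 (variance trend, R 4.3.3), 20 against 5 months within each tissue. Differences between tissues and in the age change were tested in a fit over all 27 samples. P-values were adjusted by Benjamini-Hochberg over all genes tested, with a threshold of 0.05. Single values were tested by two-sided exact permutation, whose smallest p for 4 against 5 samples is 0.00794. Alternatives were count tests of those reads (DESeq2 1.42.0, edgeR 4.0.16), beside other pseudocounts, filters, scalings, sample weights, correction for transcript length and GC, and leaving out each sample. The fits were tested on simulated data.

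The 5-month samples of the 3 tissues came from the same mice by their labels. Deviations of same-mouse samples had a mean correlation of 0.136 over 12 pairs (-0.017 to 0.294), against -0.045 for other pairs, and the mouse was a block in an alternative. No 2 replicates held identical values, and all 48 replicate pairs differed by more than counting noise. The labels give no batch, and any batch that followed age cannot be told apart from it. Floors and intervals would cover counting error only, and 3 reads correspond to a value of 0.0703 to 0.242.

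The members and gene lists were chosen with earlier results of these data known. Genes named are the 7 core subunits, up to 6 members in each direction with the smallest adjusted p among those past the threshold in each tissue, the 3 with the smallest adjusted p for each difference between tissues in age change, the extremes between tissues at 5 months, Ndufa4, Ndufa4l2 and the Ndufaf genes; a result that this rule names is not reported here. Other subunits named were chosen after their values were seen. Promoters are RefSeq sequences; runs of 6 to 9 letters were searched. Members that share sequence with transcripts of other genes, such as Ndufs3, Ndufb4 and Ndufb6, have uncertain values. Ndufb9 and Ndufs5, both called in muscle, are among them.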

Additional observations from a re-analysis of the deposited data

Results flagged for a closer look

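Of 144 groups of values tested for a sample far from the others, 11 had one, where chance gives about 1 in 20. Of these, 6 concerned replicate 74 of the 20-month livers. Its mean over the 36 subunits was 6.14 log2 units (others 6.50 to 6.60). It was also low in Ndufaf1 at 17.8 (others 24.7 to 25.4), Ndufaf2 at 7.12 (others 10.2 to 10.6), Ndufb5 at 67.6 (others 99.2 to 107), Ndufv1 at 112.4 (others 169 to 185) and Ndufv2 at 93.8 (others 113 to 120). Its summed hepatocyte markers were 45490 (others 86120 to 99181), and the part of this in the values was not tested.

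In 5-month adipose tissue, Ndufaf6 was 2.88 in X5F5239 (others 2.07 to 2.18). In 20-month adipose tissue, Ndufs7 was 56.7 in replicate 38 (others 43.02 to 46.4). In 5-month muscle, X5S5238 had 415.3 for Ndufa4 (others 232 to 248) and 6.73 for Ndufaf2 (others 3.48 to 3.87). In 20-month muscle, Ndufaf1 was 37.5 in replicate 59 (others 42.9 to 44.3).

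A test of the difference between tissues in the age change (limma interaction) passed for Ndufs1, at -0.86 log2 units for liver against adipose tissue (adjusted p = 0.000202) and -0.80 for liver against muscle (adjusted p = 0.000405). It passed for Ndufa6 at -0.57 for adipose tissue against muscle (adjusted p = 0.0374).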

How the results depend on the processing

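Counts are of 36 subunits or 7 assembly factors past the threshold, and the cause of each move was not tested. The number of all genes called also moved with the setting, so these counts alone do not describe the subunits. In liver, 2205 genes rose and 478 fell without the 20 most abundant genes, against 1269 and 1239 in the main fit. In muscle, quantile normalization gave 1571 and 1207, against 1161 and 1290. The numbers of all genes called with sample weights or DESeq2 are not given here. Leaving out 1 sample gave 1 to 7 subunits (liver), 0 to 23 (adipose tissue) and 1 to 31 (muscle), with medians of 0.00 to 0.19, 0.23 to 0.62 and 0.25 to 0.52; assembly factors ranged from 0 to 2, 0 to 1 and 0 to 5. Subunits with a different age change ranged from 1 to 8 (liver against adipose tissue, 8 without X5F5239), 1 to 5 (liver against muscle, 5 without X5S5238) and 0 to 1 (adipose tissue against muscle). Those differing between tissues at 5 and 20 months ranged from 35 to 36 and 34 to 36, 20 to 22 and 27 to 30, and 36 to 36 and 35 to 36, in the same order of pairs.

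In liver, subunits numbered 8 with scaling without the 20 most abundant genes and 9 with sample weights. Their median was -0.17 with length and GC removed, where that of all genes was -0.06. Liver assembly factors numbered 0 without a filter, with a mean of at least 5, with quantile normalization and with length and GC removed, 3 with the scaling without the 20 genes, and 2 with weights or all 27 samples in 1 fit. In adipose tissue, subunits numbered 1 without a filter, 30 with weights, 7 with DESeq2, 5 with length and GC removed and 12 in the 27-sample fit; assembly factors numbered 0 without a filter or with edgeR and 7 with weights. In muscle, subunits numbered 1 without a filter or variance trend, 14 with quantile normalization, 17 without the 20 genes, 15 with weights and 5 in the 27-sample fit. Muscle assembly factors numbered 0 without a filter, without a trend and in the 27-sample fit, 2 with a mean of at least 5 or median-of-ratios scaling, and 3 with quantile normalization, without the 20 genes, with weights or with DESeq2. Where an assembly factor count was 0 in these fits, 1 to 3 of 7 had an unadjusted p under 0.05.

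With the mouse as replicate block, the counts for the age change were 1, 1 and 1 and those between tissues were 36, 35, 22, 30, 36 and 36, none changed from the fit without the block. Different age changes numbered 18 with weights, 11 with length and GC removed and 11 with the block as well for liver against adipose tissue. For liver against muscle they were 6, 15 and 17. For adipose tissue against muscle they were 0 without a filter or with edgeR (1 at an unadjusted p under 0.05), 2 with quantile normalization or without the 20 genes, and 7 with weights. Scaling without the 20 genes left 21 subunits higher in liver than in adipose tissue at 20 months. Of all genes, 2946 were then called higher in liver there, against 5564 in the main fit. The same scaling turned Ndufaf2 to 0.50 for adipose tissue minus muscle at 5 months. It moved the median of all genes by 0.16 in liver with age and by -0.80 and -0.61 between liver and adipose tissue. It moved the share of called genes that were higher at 20 months to 82.2% from 50.6% in liver and to 63.6% from 47.4% in muscle, and length and GC removal moved the latter to 58.6%. Relative to the other subunits of each sample, Ndufs1 in muscle changed by -0.085.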
